A study of Equus caballus with 6 samples.

Results

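The 119 shortest well counted Ensembl genes of the horse were followed from the immature to the mature testis. An Ensembl gene is a locus of the public annotation, given here by an ENSECAG identifier, whereas the other loci of the tables were assembled from the reads. Genes were chosen by 3 values: an identifier number among the 26948 lowest, a length of 150 bp or less and at least 100 counts summed over the 6 libraries. The length was worked out from the count, the library total and the FPKM (a count scaled to gene length and library total), and every implied length was whole to within 0.01 bp. Of 58724 genes in the tables, 26991 were Ensembl genes and 836 Ensembl genes below the number limit were 150 bp or less. Of these 836, 717 had 1 to 99 counts and 119 had 100 or more. Another 5193 Ensembl genes below the limit had no count and so no implied length.

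The study asked which genes change in the Mongolian horse testis as spermatogenesis begins. Testes came from 3 sexually immature colts of 11 to 13 months, the BSM stage (before sexual maturation), and from 3 sexually mature stallions of 3 to 4 years, the ASM stage (after sexual maturation). Each horse gave 1 library, poly(A) RNA was sequenced from strand-marked libraries, and no treatment or genotype set the stages apart. Age and stage cannot be told apart, and in whole testis fewer cells of a type and less RNA per cell cannot be told apart. The tables pair no identifier with a gene symbol, a class of RNA or a sequence, and none of the 119 genes matched the RefSeq gene table used, so functions are not given and the tissue's markers were not checked.

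Very short gene models in a vertebrate annotation are of several kinds. Some are small RNAs, such as small nuclear RNAs, which take part in splicing, small nucleolar RNAs, which guide the modification of ribosomal RNA, and the precursors of microRNAs. Others are short stretches of coding sequence. Most small RNAs carry no poly(A) tail, and many lie inside introns or exons of longer genes, so a count on such a model in a poly(A) library need not come from the small RNA itself. At sexual maturation the seminiferous tubules fill with meiotic and haploid germ cells, which transcribe a large part of the genome.

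Library totals ran from 14015484 to 19721986 counts, so that 3 counts, the limit that a count of 0 allows, stood for 0.152 to 0.214 CPM (a count relative to the library total) before scaling. TMM factors, which rescale library totals to make most genes comparable, were 1.10 to 1.22 in BSM and 0.840 to 0.875 in ASM. Replacing them with the library total alone moved the median log2 fold change of all genes by -0.46, from 0.06 to -0.40. Values called scaled CPM used the TMM factors.

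The 119 genes were 58 to 150 bp long, with a median of 93 bp, and 66 were shorter than 100 bp. The library fragments were selected at 150 to 200 bp according to the submitters, so a fragment of that size is as long as these genes or longer. Total counts ran from 100 to 42066, with a median of 212. The lowest total inside the count limit was 100 counts, and just outside it were 2 genes with 96. The longest genes inside the length limit had 150 and 147 bp, and the next outside had 153 bp. In all, 31 genes held 100 counts in each stage alone, 53 did so only in BSM, 10 only in ASM and 25 in neither, so that most genes reached the limit through the stage where they were high or through the sum. A further 5 Ensembl genes met the length and count limits but had higher identifier numbers.

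The identifiers fell into 2 blocks, split at a gap after the data were seen. The low-numbered block had 27 genes (numbers 952 to 22988) and the high-numbered block had 92 (25218 to 27624). All 27 low-numbered lengths were divisible by 3, the form of a coding length. Of the 92 high-numbered lengths, 33 (35.9%) were divisible by 3. The same held in the wider set of 836 short genes with any count. There, 48 of 51 low-numbered lengths (94.1%) and 261 of 785 high-numbered lengths (33.2%) were divisible by 3. This wider set had no such gap at the cut, as its numbers ran up to 25192 below it and from 25201 above it. The same cut was used for longer genes. Among high-numbered genes over 300 bp with 100 counts or more, 133 of 136 lengths were divisible by 3. Low-numbered genes were also longer and more heavily counted, with medians of 123 bp and 912 counts against 87 bp and 185.5 counts. Which of these genes code for proteins was not tested.

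Very short genes held few of the counts but a visible part of the summed FPKM, which divides by length. Their share of all gene counts was 0.240%, 0.291% and 0.277% in BSM1 to BSM3 and 0.205%, 0.243% and 0.260% in ASM1 to ASM3, each known to within 0.00275 percentage points by its 95% Wilson interval, which covers counting error only. The stages overlapped. The BSM mean of 0.270% ± 0.0265 (SD, n = 3) stood against 0.236% ± 0.0281 in ASM, a difference of -0.0339 points (2-sided exact permutation test, p = 0.3). With 3 against 3 the smallest p is 0.1, so this test could not pass 0.05 and does not show that the stages were alike. Their share of summed FPKM was 3.25% ± 0.306 in BSM and 2.88% ± 0.375 in ASM (n = 3, exact permutation p = 0.2). The 10 most counted of them held 73.4% to 81.3% of their counts in each library.

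**Figure D1:**
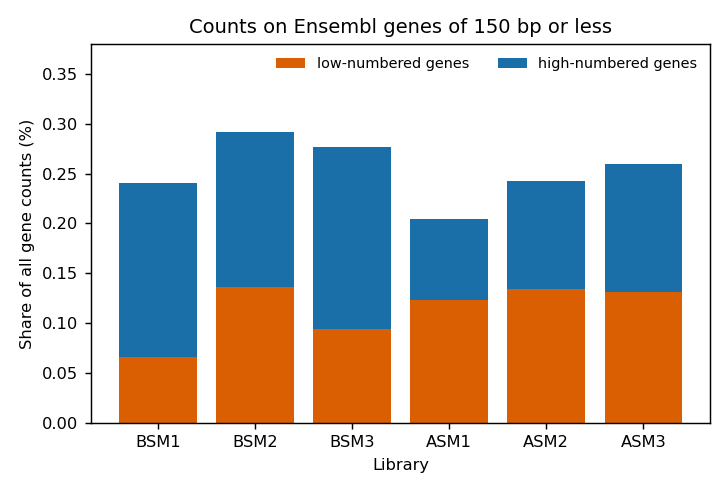
Share of all gene counts (y axis, %) on the 119 genes in each of the 6 libraries (x axis), stacked by identifier block. The low-numbered part is 0.0661% in BSM1 and 0.136% in BSM2, and the high-numbered part is 0.155% to 0.183% in BSM and 0.0814% to 0.129% in ASM.

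The 2 blocks were unlike in their shares. Low-numbered genes held 0.0661%, 0.136% and 0.0941% of counts in BSM and 0.123%, 0.134% and 0.131% in ASM, so BSM2 lay above the ASM libraries (0.0989% ± 0.0354 against 0.129% ± 0.00560, SD, n = 3). High-numbered genes held 0.174%, 0.155% and 0.183% in BSM and 0.0814%, 0.108% and 0.129% in ASM, with no overlap (0.171% ± 0.0142 against 0.106% ± 0.0238, SD, n = 3). The 2-sided exact permutation p was 0.4 for the low-numbered and 0.1 for the high-numbered share. Whether the stages overlapped turned on the scaling in both blocks. In scaled CPM the low-numbered sum was 842 ± 271 in BSM and 1524 ± 61.1 in ASM with no overlap (SD, n = 3, exact permutation p = 0.1), and the high-numbered sum was 1469 ± 156 and 1247 ± 255 with overlap (exact permutation p = 0.2, n = 3). The stage mean of the sum over the 119 genes was lower in ASM as a share of counts, with overlap. In scaled CPM the sum was higher in ASM without overlap, at 2205, 2434 and 2295 in BSM1 to BSM3 and 2453, 2878 and 2984 in ASM1 to ASM3 (2311 ± 116 against 2772 ± 281, SD, n = 3, exact permutation p = 0.1). The median gene went the other way, with a mean scaled CPM of 2.54 in BSM and 1.19 in ASM. The genes were chosen by a limit on these same counts, so the p-values of these shares and sums are given as descriptions and support no reading.

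Ranked by counts, none of the 119 genes was among the 100 highest of the tables at either stage. Ranked by FPKM, a level per length, 5 were among the 100 highest in BSM and 8 in ASM. The median gene stood at percentile 70.6 of all genes by CPM and 93.0 by FPKM in BSM, and at 57.0 and 85.1 in ASM. All 119 had a mean FPKM over 1 at both stages. Dividing by a length below that of a sequenced fragment raised the rank of these genes, so their FPKM ranks are given as the unit of the deposited table and not as an order of abundance.

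Most very short genes that changed were lower after maturation. The edgeR quasi-likelihood test was fitted to all genes and adjusted by the Benjamini-Hochberg method with a threshold of 0.05, and 118 of the 119 genes passed its filter on low counts. Of these, 66 were lower in ASM (55.9%), 22 were higher (18.6%), and 30 did not pass the threshold. Over the 32954 genes tested, 41.4% were higher and 36% were lower. The 22 higher genes had a median log2 fold change of 3.05 and 13 of them were at least 2 on that scale. Over all genes tested, the 13644 higher ones had a median of 3.45, and 9792 of them were at least 2. The 66 lower genes had a median of -1.90, and 30 of them were at -2 or beyond. Over all genes tested, the 11871 lower ones had a median of -1.81, and 5078 of them were at -2 or beyond. The median over the 118 genes was -1.31, against 0.06 over all genes tested, but it turned to 0.51 over the 30 genes with 500 counts or more. Since the count limit was set on the same 6 libraries, these numbers describe the genes and do not test them.

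The side on which the stages separated is given beside the same share over all genes. The 3 ASM libraries lay above the 3 BSM libraries in scaled CPM in 22 genes, against 43% of all genes tested, and below them in 75, against 38.4%. In the remaining 21 of the 118 genes the stages overlapped, beside 6146 of the 32954 genes tested. Every gene past the threshold was without overlap, and so were 9 of the 30 that did not pass, all of them with ASM below. The gene left untested had 134 bp and lay in the high-numbered block. It had 65, 6 and 46 counts in BSM1 to BSM3 and 4, 2 and 2 in ASM1 to ASM3, again with ASM below.

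**Figure D2:**
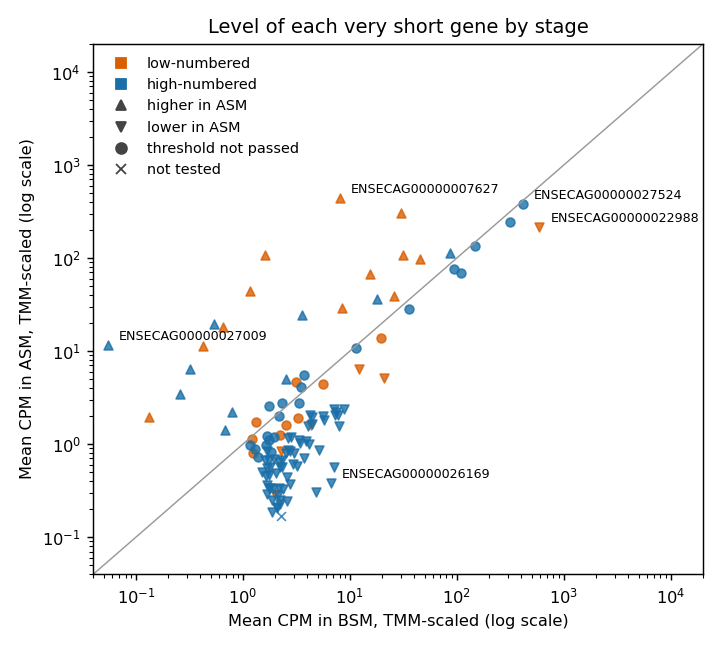
Mean scaled CPM of each of the 119 genes in BSM (x axis, log scale) and ASM (y axis, log scale), coloured by identifier block, with the symbol giving the edgeR call and the grey line marking equal levels. Genes lower in ASM form a dense group under the line below 10 CPM, and genes higher in ASM, among them 12 low-numbered ones, lie above the line over the whole range.

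The calls are given by identifier block, and the difference between blocks was not tested. Of the 27 low-numbered genes, 12 were higher in ASM (44.4%, near the 41.4% of all genes tested), 6 were lower (22.2%, against 36%) and 9 did not pass, with a median log2 fold change of 0.39. Of the 91 high-numbered genes tested, 10 were higher, 60 were lower (65.9%) and 21 did not pass, with a median of -1.62. With the library total alone in place of TMM, the low-numbered block split evenly, with 10 higher and 10 lower, and the high-numbered block had 6 higher and 73 lower. Without BSM1 or without BSM3, 6 high-numbered genes were higher in place of 10.

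Calls also varied with the number of counts. Among genes with under 500 counts, 6 were higher and 61 lower of 88 tested. Among the 18 with 500 to under 5000 counts, 10 were higher and 4 lower, and among the 12 with 5000 or more, 6 were higher and 1 lower. Within the high-numbered block, 58 of the 60 lower genes had under 500 counts. The 78 high-numbered genes with under 500 counts together had a scaled CPM of 278, 198 and 189 in the BSM libraries and 82.1, 101.2 and 94.9 in the ASM libraries (222 ± 49.0 against 92.7 ± 9.71, SD, n = 3, no overlap, exact permutation p = 0.1). These genes were picked on the same counts, and 53 of the 119 genes reached 100 counts in BSM alone against 10 in ASM alone, so this p is a description too. Spearman's rho between total counts and log2 fold change across genes was 0.464 over the 118 genes and 0.386 over the 91 high-numbered ones, values that describe these genes, which share libraries and are not independent replicates.

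Longer Ensembl genes were compared in the same count ranges. Of 66 tested genes of over 150 and up to 300 bp with 100 to under 500 counts, 27.3% were higher and 33.3% lower, and of 2556 genes over 300 bp, 22.3% were higher and 46.5% lower. The matching values for genes of 150 bp or less were 6.82% and 69.3%. With 500 to under 5000 counts the order was the other way, with 55.6% higher and 22.2% lower of the 18 very short genes, 36.7% and 40% of 90 genes up to 300 bp, and 29.0% and 46.6% of 7555 over 300 bp. With 5000 counts or more, 50% of the 12 very short genes were higher and 8.33% lower, against 58.6% and 20.7% of 29 genes up to 300 bp and 54.0% and 29.1% of 4522 over 300 bp. Without matching on counts, the high-numbered genes of 100 counts or more had 8 higher and 10 lower of 25 up to 300 bp (median 624 counts) and 56 higher and 46 lower of 136 over 300 bp (median 1672 counts). The sets differ in size and in how far counts reached above the limit, and the differences between them were not tested.

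Within the 150 bp limit, length went with the calls to a smaller extent. Of 28 genes up to 75 bp, 3 were higher (10.7%) and 21 lower (75%), against 41.4% and 36% of all genes tested. Of 38 genes of 76 to 100 bp, 5 were higher (13.2%) and 21 lower (55.3%). The 52 tested genes of over 100 bp gave 14 higher (26.9%) and 24 lower (46.2%), nearer to all genes. Spearman's rho between length and log2 fold change across genes was 0.194 over the 118 genes but 0.0449 within the 27 low-numbered and 0.0181 within the 91 high-numbered genes.

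**Figure D3:**
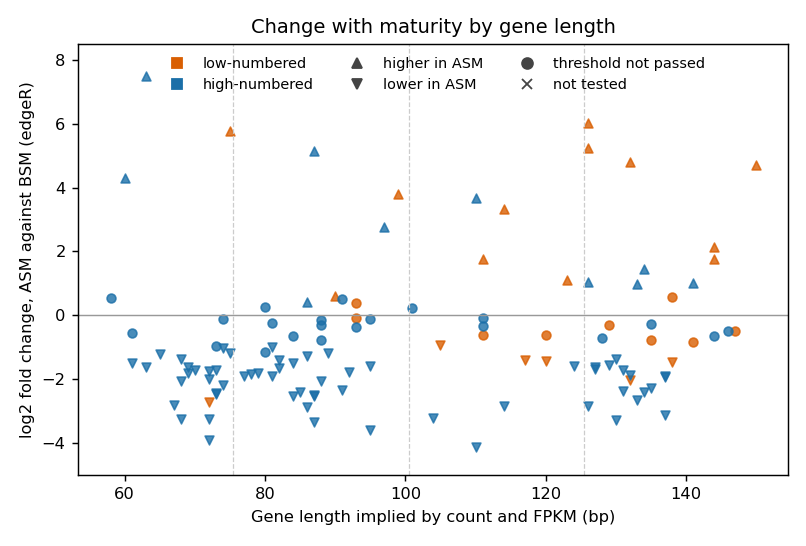
Log2 fold change of ASM against BSM (y axis, edgeR) of the 118 tested genes against the length implied by count and FPKM (x axis, bp), coloured by identifier block with the symbol giving the call, and with dashed lines between the length classes. The lower genes lie between -0.93 and -4.12 at lengths of 61 to 138 bp, and 5 of the 12 low-numbered higher genes are above 4.

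The higher genes included several that were close to absent from the immature testis. ENSECAG00000027009, a high-numbered gene of 63 bp, had the largest fold change, with 0, 2 and 1 counts in BSM1 to BSM3 and 164, 249 and 143 in ASM1 to ASM3. All ASM libraries lay far above all BSM libraries. With 3 counts in BSM against 556 in ASM, the ratio per library total and scaling was 206 with a 95% counting interval of 70.1 to 1001. The fitted log2 fold change of 7.50 (SE 0.57, edgeR quasi-likelihood test, Benjamini-Hochberg adjusted p = 2.82e-05) depends on the prior count and ran from 6.84 without BSM1 to 8.28 without BSM2.

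ENSECAG00000007627, a low-numbered gene of 75 bp, was the most counted of the higher genes. It had 41, 288 and 111 counts in BSM1 to BSM3 and 6710, 8052 and 6260 in ASM1 to ASM3, or 8.03 ± 6.48 and 439 ± 39.1 scaled CPM (SD, n = 3). The stages were far apart, and within BSM the library BSM2 was the highest and BSM1 the lowest. The log2 fold change was 5.77 (SE 0.62, edgeR adjusted p = 0.000121), and it was 6.61 without BSM2 and 5.16 without BSM1. Its mean FPKM of 4974 ± 423 in ASM ranked 6 among all genes, while by CPM it ranked 352, and in BSM its FPKM of 127 ± 105 ranked 862.

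Further low-numbered genes had the same form and are given without identifiers. One had 10, 44 and 33 counts in BSM and 1541, 2138 and 1441 in ASM, with a log2 fold change of 6.03. Another had 3, 38 and 22 against 717, 672 and 731, with 5.24. One of 114 bp had 319, 828 and 476 against 5742, 4913 and 3892, with 3.33. In these genes as in ENSECAG00000007627, BSM1 was the lowest of the colts and BSM2 the highest. At the small end of the higher calls, a low-numbered gene of 90 bp had 431, 506 and 441 counts against 573, 710 and 589, a log2 fold change of 0.59, which still passed the edgeR test with an adjusted p of 0.00464.

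High-numbered genes with a higher level in ASM were fewer and spread over a wide range. One of 87 bp had 7, 13 and 9 counts in BSM and 252, 323 and 347 in ASM, with a log2 fold change of 5.14, and one of 60 bp had 6, 7 and 4 against 109, 93 and 106, with 4.31. One of 86 bp, among the most counted of the block, had 1479, 1578 and 1479 against 1669, 1652 and 2111, with 0.42 and an adjusted p of 0.0421 in the edgeR test. The first of these genes were almost silent in the colts, whereas the last was well expressed at both stages.

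The lower genes were mostly lightly counted and differed in how far they fell. ENSECAG00000026169, a high-numbered gene of 110 bp, had the largest decrease, with 221, 61 and 66 counts in BSM1 to BSM3 and 5, 7 and 6 in ASM1 to ASM3. BSM1 stood above the other colts and every BSM library stood above every ASM library. The levels were 6.69 ± 5.45 and 0.377 ± 0.0595 scaled CPM (SD, n = 3), the log2 fold change was -4.12 (SE 0.67, edgeR adjusted p = 0.000811), and without BSM1 it was -3.37. Similar genes were one of 72 bp with 152, 22 and 72 counts in BSM and 1, 11 and 3 in ASM, and one of 95 bp with 226, 39 and 99 against 9, 16 and 3, both with BSM1 highest and BSM2 lowest of the colts.

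ENSECAG00000022988, a low-numbered gene of 138 bp, was the most counted of the 119 genes and was also lower. It had 6462, 16248 and 9201 counts in BSM1 to BSM3 and 2736, 3917 and 3502 in ASM1 to ASM3. BSM2 was the highest library, where this gene made up 35.0% of the counts on the 119 genes, and the stages did not overlap. Scaled CPM was 592 ± 240 in BSM and 213 ± 37.8 in ASM (SD, n = 3), a log2 fold change of -1.47 (SE 0.30, edgeR adjusted p = 0.00239). Leaving this gene aside turned the difference in the share of counts between the stages from -0.0339 to 0.0177 percentage points. The other 5 low-numbered lower genes had log2 fold changes from -2.73 to -0.93, and one of 132 bp among them had 427, 377 and 305 counts in BSM and 82, 88 and 77 in ASM.

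**Figure D4:**
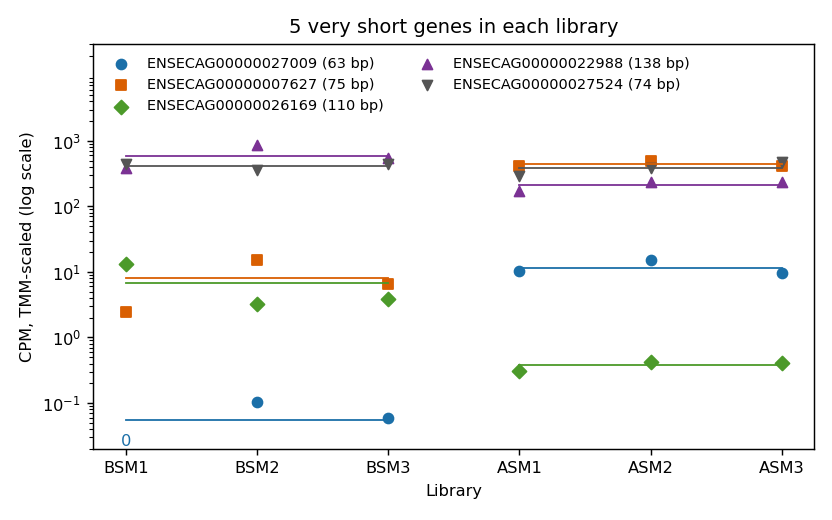
Scaled CPM (y axis, log scale) of 5 genes in each library (x axis), with points for libraries and lines for the stage means of n = 3, and a 0 written where a library had no count. ENSECAG00000027009 and ENSECAG00000007627 are higher in all ASM libraries, ENSECAG00000026169 and ENSECAG00000022988 are lower in all of them, and ENSECAG00000027524 overlaps between the stages.

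The most heavily counted high-numbered genes held no lower call. Of the 6 with 5000 counts or more, 1 was higher, 5 did not pass the threshold, and the log2 fold changes ran from -0.66 to 0.42. Over all genes tested, 41.4% were higher and 36% lower. Of 4522 genes over 300 bp with 5000 counts or more, 54.0% were higher and 29.1% lower. With 6 genes, the lack of a lower call is a description only. ENSECAG00000027524, of 74 bp, had 7446, 6804 and 7490 counts in BSM1 to BSM3 and 4691, 6281 and 7075 in ASM1 to ASM3. In scaled CPM the stages overlapped, at 412 ± 47.9 and 380 ± 91.2 (SD, n = 3), with ASM1 lowest and ASM3 highest of all libraries. The log2 fold change of -0.12 (SE 0.20, edgeR adjusted p = 0.606) did not pass, was 0.14 without ASM1, and passed at -0.57 only when scaled by library total (adjusted p = 0.0341) and at -0.59 in limma on log2(FPKM + 1) (adjusted p = 0.0270). Its FPKM ranked 5 among all genes in BSM and 7 in ASM. Of the 6 genes, ASM1 was the lowest ASM library in 5 and ASM3 the highest in 6. Together they had a scaled CPM of 762, 1040 and 1255 in ASM1 to ASM3 and of 1230, 1015 and 1241 in BSM1 to BSM3. The mature horses thus spread more widely than the colts on these genes, and the stages overlapped (1162 ± 128 against 1019 ± 247, SD, n = 3, exact permutation p = 0.7).

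The colts were not alike on these genes. Among the 22 higher genes, BSM2 was the highest colt in 18 and BSM1 the lowest in 15. Over all genes higher in ASM, BSM2 was the highest colt in 52.6% and BSM1 the lowest in 63.9%. Among the 66 lower genes, BSM1 was the highest colt in 44, against 50.8% of all genes lower in ASM. The lowest colt was BSM3 in 30 of the 66 (45.5%, against 25.8% of all genes lower in ASM) and BSM2 in 27 (40.9%, against 52.0%). In 9 of the 66 the highest colt had at least 3 times the scaled CPM of the lowest, and BSM1 was the highest in 9 of these and BSM2 the lowest in 8. Among the 22 higher genes 7 had colts that far apart. Over the 119 genes 19 had colts that far apart (16.0%, against 26.4% of all genes tested) and 17 had stallions that far apart (14.3%, against 12.7%). Pearson's r of log2 CPM across the 119 genes was 0.905 to 0.952 between colts, 0.981 to 0.986 between stallions and 0.546 to 0.763 between the stages, with the highest values between stages for BSM2. The genes are not independent replicates, and these values describe the libraries. The age of each single colt within the stage was not used here.

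**Figure D5:**
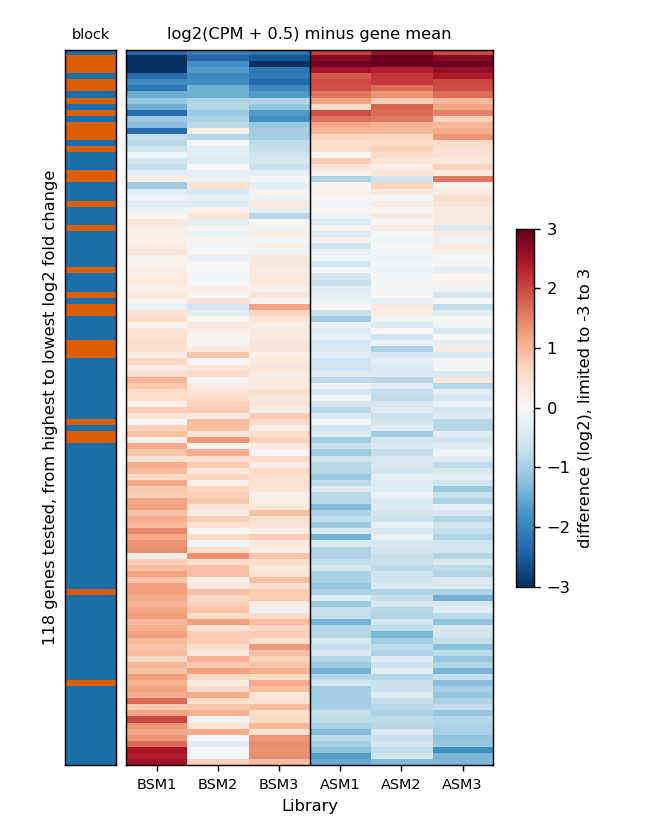
Log2(CPM + 0.5) minus the mean of each gene (colour, limited to -3 to 3) for the 118 tested genes (rows, ordered by log2 fold change) in the 6 libraries (columns), with the identifier block at the left in the colours orange for low-numbered and blue for high-numbered. Of the 27 low-numbered genes, 12 are among the 22 higher genes at the top, 6 were lower and 9 did not pass. BSM1 has the strongest colours of the colts at both ends.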

How the data were processed

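RNA-Seq of testis from 6 Mongolian horses (3 BSM, 3 ASM) was analysed from the gene tables. The authors aligned 150 bp read pairs to the Ensembl horse genome with TopHat2 (version 2.0.12, Bowtie2 2.2.3), assembled further loci and deposited raw counts per gene from HTSeq (version 0.6.1) and FPKM computed by the authors from those counts and gene lengths. The genome build, annotation release and strand setting of counting are not given in the sources used here, so overlapping, antisense and repeated gene copies could not be separated, and their counts are uncertain. The 3 mature columns could be tied to the ASM stage but not to single sample records. Their names follow the study, which gives AS1 to AS3 the same raw read numbers as ASM1 to ASM3. Horses were separate animals.

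Counts were tested in R (4.3.3) with edgeR (4.0.16; filterByExpr, TMM, quasi-likelihood F test, Benjamini-Hochberg over 32954 genes), and SE is the absolute log2 fold change divided by the square root of F. The model fits alone were tested on simulated counts. Shares and sums were compared by 2-sided exact permutation tests (SciPy 1.17.1). Alternatives were DESeq2 (1.42.0), its size factors, library totals alone, 2 other filters, limma (3.58.1) on log2(FPKM + 1) for a mean FPKM over 0.1, Ensembl genes only, other length and count limits, and each library left out. Replicates, each a separate horse, differed by more than counting error alone (chi-square over df at least 9.52 within a stage).

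Genes named by identifier were those without overlap and past the threshold with the largest change and the most counts per direction, and the most counted that did not pass. Others are given without identifiers and were chosen after their values were seen. The genes, limits and blocks were chosen with earlier results of these data known. The RefSeq table used (39335 rows) held 0 Ensembl identifiers, so no sequence or name is printed.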

Additional observations from a re-analysis of the deposited data

How the results depend on the processing

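Of 204 values recomputed under an alternative, 169 did not change by these rules: single genes and shares kept their direction and side of the threshold, counts of genes stayed within 1.5 times the first value, and medians kept their direction and moved by less than 0.207, the spread between replicates on the log2 scale. With library totals alone the median log2 fold change was -1.76, 10 low-numbered genes were lower and 6 high-numbered ones higher. Requiring 10 counts in every library, which by construction removes genes low at 1 stage, left 12 higher and 25 lower genes, a median of -0.48, and 4 higher and 20 lower high-numbered genes. Limma on log2(FPKM + 1) gave a median of -1.65 and 11 lower low-numbered genes. A length limit of 100 bp gave 8 higher and 42 lower genes, 3 and 1 of them low-numbered, and 5 higher high-numbered genes. A limit of 200 bp gave 37 higher genes, a median of -0.94, and 25 higher and 15 lower low-numbered genes. A count limit of 500 gave 5 lower genes, a median of 0.51, 3 lower low-numbered genes, and 5 higher and 2 lower high-numbered ones. Both kinds of limit change which genes are counted. The log2 fold change of ENSECAG00000027524 turned to 0.039 with DESeq2 (adjusted p = 0.898) and with its size factors in edgeR, and ran from -0.23 to 0.14 with single libraries left out, the highest without ASM1, and the cause was not tested.

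The stage difference in the share of counts turned to 0.0177 percentage points without the most counted gene and to 0.886 with a limit of 200 bp, and that in FPKM to 0.0719 and 6.37. Leaving out single libraries gave 16 to 21 higher and 53 to 67 lower genes, medians of -1.43 to -1.14, 10 to 12 higher and 4 to 7 lower low-numbered genes, and 6 to 9 higher and 49 to 60 lower high-numbered genes. It moved the difference in the share of counts between -0.0486 and -0.0185 points and in FPKM between -0.559 and -0.184. No paired analysis was possible because no horse was sampled at both stages. With 3 horses per stage and under 500 counts on most genes, small differences may have been missed, and the smallest detectable difference was not worked out.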

Other observations

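The 717 Ensembl genes of 150 bp or less with 1 to 99 counts were too lightly counted for most to be tested. Of the 48 that passed the filter on low counts, 5 were higher in ASM (10.4%) and 32 were lower (66.7%) in the edgeR test, against 41.4% and 36% of all genes tested. The high-numbered block held 693 of the 717, of which 43 were tested with 3 higher and 30 lower. The low-numbered block held 24, of which 5 were tested with 2 higher and 2 lower (40% each, near the share over all genes). A gene with so few counts passes the filter more readily where its counts lie in 1 stage, so these numbers describe the tested genes alone.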
